A study of Mus musculus with 9 samples.

Results

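The comparison is between mouse bone marrow-derived macrophages treated with CCL26 and the same kind of culture treated with CX3CL1, the 2 chemokines that the study names as ligands of the receptor CX3CR1. It takes 6 of the 9 RNA-seq libraries, 3 per chemokine, and all 13593 genes of the deposited count table. The cells came from the marrow of wild-type C57BL/6 mice aged 6 weeks and had grown for 7 days in medium with 15% supernatant of L929 cells, a fibroblast line that secretes the macrophage growth factor M-CSF. Each culture then received 4 nM of CX3CL1 or 4 nM of CCL26 for 4 h, so that dose and time were matched. No gene was deleted or transgenic in either group. The labels do not say whether replicates came from separate mice or cultures, so the p-values speak of the spread of these libraries alone, and that spread may be technical. The BSA control libraries were not used, and a difference therefore does not show which of the chemokines moved a gene.

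CX3CR1 is a G protein-coupled receptor of monocytes and tissue macrophages. CX3CL1, or fractalkine, is its classical ligand and exists as a membrane-bound and as a shed form. CCL26, or eotaxin-3, is best known as a ligand of CCR3 on eosinophils and is also reported to bind CX3CR1. Macrophages answer many danger signals with 2 linked transcription programmes. NF-kB factors drive cytokines, chemokines and their own inhibitors, and type I interferon signals through STAT and IRF factors to a wide set of antiviral genes, the interferon-stimulated genes.

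One CX3CL1 library stood apart, and the counts of called genes, fold changes and medians of pathway lists below are given with and without it. Adjusted p-values are printed for part of the named genes. Where CX3CL1 replicate 2 or 3 was left out beside replicate 1, 1 CX3CL1 library remained. The spread then came from the CCL26 libraries alone. Calls lost or kept in those fits do not show how far CX3CL1 libraries agree. Most cell type lists are described by summed levels alone. The libraries held 16923982 to 23198324 counts. In CX3CL1 replicate 1, 1193 genes had no count at all, where the other 5 libraries missed 103 to 150 genes. Its mean correlation with them was 0.927, against 0.978 to 0.980 for each of the others. Of 8169 genes with a mean of at least 10 CPM, a count scaled by library size, 32.6% lay at least 2-fold from the mean of CX3CL1 replicates 2 and 3 in this library. Between replicates 2 and 3 themselves, 1 gene differed that far. The deviation followed transcript length. In the quintile of genes with the shortest annotated transcripts, CX3CL1 replicate 1 lay a median of 1.01 above its replicates on the log2 scale, and in the quintile with the longest it lay 1.03 below them. Across those genes with an annotated transcript (8167), Spearman's rank correlation between length and deviation was -0.704, a description over genes of 1 library, and -0.112 between length and the difference of replicates 2 and 3. Among the short-transcript genes high in this library was Rplp2, a ribosomal stalk protein, at 1278 CPM against 245 and 218 CPM in its replicates. Atp7a, a copper transporter, stood at 0.134 CPM there against 69.7 and 81.96 CPM. The labels name no batch or date for this library, and the source of its deviation was not tested.

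**Figure D1:**
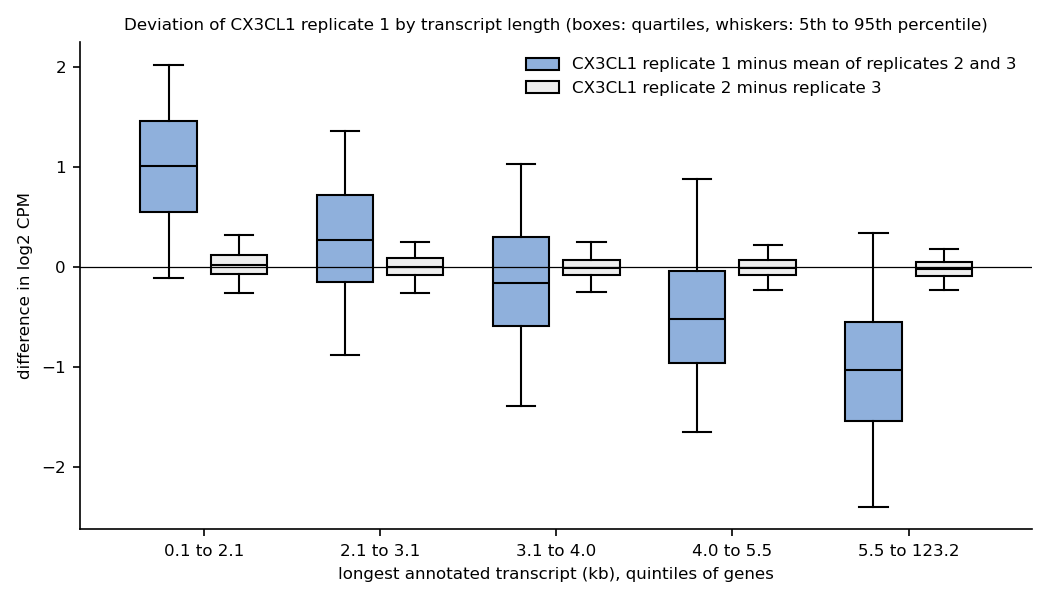
Difference in log2 CPM for genes of at least 10 CPM, by quintiles of the longest annotated transcript (x axis, kb). Filled boxes show CX3CL1 replicate 1 minus the mean of CX3CL1 replicates 2 and 3, and pale boxes show replicate 2 minus replicate 3 (boxes span the quartiles, whiskers the 5th to 95th percentile). The median of the filled boxes goes from 1.01 in the shortest quintile to -1.03 in the longest.

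The cultures carried macrophage transcripts in both groups. All 16 macrophage markers were present in the table, and their summed level was 32970 to 50130 CPM with CX3CL1 and 29350 to 29560 CPM with CCL26. None of them was higher with CCL26 and 4 were lower without CX3CL1 replicate 1, where 3.23% of all tested genes were lower. With 1 more library left out, the lower markers numbered 1 without CX3CL1 replicate 2 and 7 without CCL26 replicate 3. Among the 4 was Lyz2, lysozyme, with a log2 fold change of -0.25 without CX3CL1 replicate 1 and -0.56 with it. Lyz2 made up most of the summed level, at 21490 to 37080 CPM with CX3CL1 and 18020 to 18470 CPM with CCL26. Of the 16 markers, 12 were not past the test without CX3CL1 replicate 1. The estimates were 4 positive and 12 negative without that library, and 7 positive and 9 negative with it. The list median was -0.062 without it and -0.275 with it. In bulk RNA, fewer cells of a type and less RNA per cell cannot be told apart. Only 2 of 11 T and NK cell markers were in the table, and they summed to at most 3.41 CPM in any library. The 3 mast cell, basophil and eosinophil markers in the table, of 10 listed, summed to 3.35 to 5.60 CPM with CX3CL1 and 5.54 to 6.90 CPM with CCL26. The 4 B cell markers in the table summed to 101 to 217 CPM with CX3CL1 and 97.6 to 104 CPM with CCL26. The 12 granulocyte markers in the table summed to 150.3 to 236 CPM with CX3CL1 and 163 to 170.1 CPM with CCL26. The 3 erythroid and megakaryocyte markers in the table, of 10 listed, summed to 265 CPM in CX3CL1 replicate 1. In the other 5 libraries they summed to 66.8 to 90.3 CPM. Nearly all of this was Pf4, at 262 CPM in CX3CL1 replicate 1 and 65.6 to 89.0 CPM in the others. Pf4 is also counted among the chemokine ligands below. Over all 6 libraries, the sums were 7.28 to 18.4 CPM for stromal, 14.9 to 24.4 CPM for dendritic cell, 84.1 to 96.7 CPM for inflammatory monocyte and 88.0 to 111 CPM for osteoclast markers. In the macrophage, T and NK, B, granulocyte, erythroid, stromal and dendritic lists, the highest sum was that of CX3CL1 replicate 1. The part of other cells in the results was not tested.

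With all 6 libraries, 4 of 12466 tested genes were higher with CCL26 (0.0321%) and 0 were lower (0.0%), by edgeR's quasi-likelihood test at an adjusted p under 0.05. At an unadjusted p under 0.05, 375 genes were higher and 245 lower. The 4 genes past the adjusted threshold were Acod1, Cxcl10, Ifit3 and Ifit1. Acod1 makes itaconate, an antimicrobial metabolite of activated macrophages. Cxcl10 is a chemokine that draws activated T cells and is a classical interferon-stimulated gene. Ifit1 and Ifit3 encode antiviral proteins that bind viral RNA or each other. All 4 were also past the test without CX3CL1 replicate 1.

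Acod1 (chr14:103046977-103056573, GRCm38) stood at 109.5, 107 and 104 CPM in the CX3CL1 replicates 1, 2 and 3 and at 541, 550.1 and 509 CPM in the CCL26 replicates 1, 2 and 3. All CCL26 libraries lay far above all CX3CL1 libraries, the deviating one included. The log2 fold change was 2.32 (SE 0.132, adjusted p = 0.0102) with all 6 libraries and 2.34 (SE 0.0561, adjusted p = 2.79e-15) without CX3CL1 replicate 1. Cxcl10 (chr5:92346638-92348889) was at 10.4, 6.06 and 6.31 CPM with CX3CL1 and 74.04, 79.8 and 72.98 CPM with CCL26. CX3CL1 replicate 1 was the highest of its group for Cxcl10 and still below every CCL26 library. The log2 fold change of Cxcl10 was 3.32 (SE 0.258, adjusted p = 0.0344) with all 6 libraries and 3.61 (SE 0.112, adjusted p = 9.49e-14) without that library.

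Ifit3 (chr19:34583531-34588731) was at 11.98, 12.99 and 13.1 CPM with CX3CL1 and 43.9, 45.01 and 42.9 CPM with CCL26, with both groups tight and apart. Its log2 fold change was 1.79 (SE 0.146, adjusted p = 0.0344) with all 6 libraries and 1.75 (SE 0.11, adjusted p = 3.74e-09) without CX3CL1 replicate 1. Ifit1 (chr19:34640871-34650009) was at 29.04, 22.2 and 21.01 CPM with CX3CL1 and 103, 114 and 96.8 CPM with CCL26, again without overlap. For Ifit1 the log2 fold change was 2.12 (SE 0.186, adjusted p = 0.0418) with all 6 libraries and 2.28 (SE 0.0929, adjusted p = 7.19e-12) without that library. When any 1 of the other 5 libraries was left out while CX3CL1 replicate 1 stayed in, none of the 4 genes was called, with adjusted p from 0.196 for Acod1 to 0.473 for Ifit1 and Ifit3. Without CX3CL1 replicate 1, all 4 stayed past the test whichever CCL26 library was left out too.

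**Figure D2:**
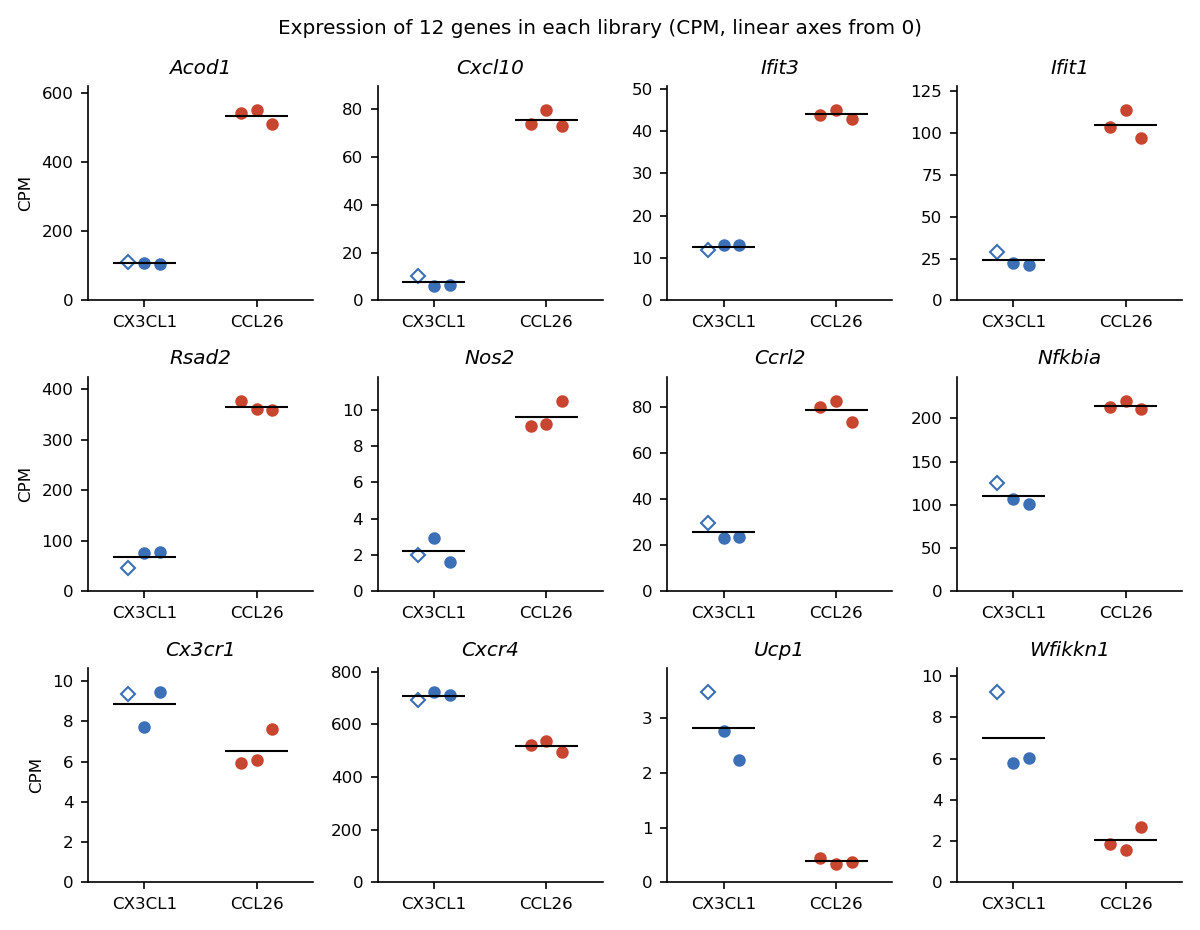
CPM of 12 genes in each library, on linear axes from 0. Open diamonds mark CX3CL1 replicate 1, filled points the other 5 libraries (CX3CL1 blue, CCL26 red), and bars the mean of 3 libraries. In Acod1, Cxcl10, Ifit3 and Ifit1 the CX3CL1 libraries, the diamond included, lie far below the CCL26 libraries, while in Ucp1 and Wfikkn1 they lie above them.

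The promoters of these 4 genes, of Rsad2 and of Nfkbia are printed to show the start regions of genes that moved together, Nfkbia being the best known NF-kB target. Each run holds the 250 bases before the RefSeq transcription start on GRCm38.p6, 5′ to 3′ on the gene's strand. GENCODE M21 places the start of Acod1 and of Ifit1 inside the last bases of these windows. Capitals mark matches to a core of the interferon-stimulated response element (GAAA, any 2 bases, GAAA) or to a kappaB site (GGGA, any 2 bases, T, any 1 base, CC), each searched on both strands. In these promoters no match of one motif overlapped a match of the other. Both motifs were chosen after the promoters were looked at.
Acod1, chr14:103046762-103047011, plus strand: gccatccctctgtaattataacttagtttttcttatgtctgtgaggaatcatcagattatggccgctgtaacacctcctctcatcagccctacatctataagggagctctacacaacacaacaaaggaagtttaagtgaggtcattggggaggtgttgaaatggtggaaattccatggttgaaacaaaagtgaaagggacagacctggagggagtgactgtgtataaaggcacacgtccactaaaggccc
Cxcl10, chr5:92348890-92349139, minus strand: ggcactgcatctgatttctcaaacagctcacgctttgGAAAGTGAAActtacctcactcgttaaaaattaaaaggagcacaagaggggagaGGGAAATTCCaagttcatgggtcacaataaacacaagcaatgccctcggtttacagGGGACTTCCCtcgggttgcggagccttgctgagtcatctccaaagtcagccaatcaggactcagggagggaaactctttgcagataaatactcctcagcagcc
Ifit3, chr19:34583279-34583528, plus strand: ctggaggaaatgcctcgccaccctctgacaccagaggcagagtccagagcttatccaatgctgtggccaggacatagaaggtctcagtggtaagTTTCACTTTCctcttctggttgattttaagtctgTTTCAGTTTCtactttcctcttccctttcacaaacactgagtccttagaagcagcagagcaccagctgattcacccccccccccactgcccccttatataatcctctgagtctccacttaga
Ifit1, chr19:34640639-34640888, plus strand: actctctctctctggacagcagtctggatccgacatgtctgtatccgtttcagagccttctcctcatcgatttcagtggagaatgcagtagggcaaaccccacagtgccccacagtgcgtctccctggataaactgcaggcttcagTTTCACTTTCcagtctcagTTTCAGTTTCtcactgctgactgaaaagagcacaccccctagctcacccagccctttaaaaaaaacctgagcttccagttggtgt
Rsad2, chr12:26456453-26456702, minus strand: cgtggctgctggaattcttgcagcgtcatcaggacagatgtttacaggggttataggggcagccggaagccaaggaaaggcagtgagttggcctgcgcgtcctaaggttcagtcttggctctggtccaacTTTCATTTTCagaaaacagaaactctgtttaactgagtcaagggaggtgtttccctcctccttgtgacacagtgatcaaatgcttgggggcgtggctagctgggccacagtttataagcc
Nfkbia, chr12:55492648-55492897, minus strand: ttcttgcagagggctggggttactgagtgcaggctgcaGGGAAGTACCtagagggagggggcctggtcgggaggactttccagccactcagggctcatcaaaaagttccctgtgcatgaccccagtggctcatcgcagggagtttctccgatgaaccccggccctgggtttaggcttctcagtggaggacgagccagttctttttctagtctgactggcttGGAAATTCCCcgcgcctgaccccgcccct
Ifit3 held 2 matches to the response element, which began 156 and 122 bases before the start, and Ifit1 held 2, at 104 and 85 bases. Rsad2 held 1, at 120 bases. Cxcl10 held 1 response element at 213 bases and 2 kappaB matches at 159 and 103 bases. Nfkbia held 2 kappaB matches, at 212 and 29 bases, and Acod1 held neither motif in this window. Of all 32851 promoters of that length in the table, 2.98% held the response element and 3.33% the kappaB motif. The matches are descriptions of letters, and binding was not measured.

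Without CX3CL1 replicate 1, 1038 of 12913 tested genes passed (8.04%), of which 621 (4.81%) had the higher level under CCL26 and 417 (3.23%) the lower. The median log2 fold change over all tested genes was 0.005. The higher genes had the larger changes: their median was 0.472 on the log2 scale, and 103 of them reached 2-fold. For the lower genes the median was -0.276, 18 reached 2-fold and 378 lay under 1.5-fold. Over all 6 libraries, CX3CL1 replicate 1 included, 516 of the 621 higher genes had groups that did not overlap (83.1%), where 13.1% of all tested genes were apart in that direction. Of the 417 lower genes, 252 were apart (60.4%), against 9.54% of tested genes. These genes were called on 5 of the same 6 libraries, so the calls themselves favour groups that are apart. Of the tested genes, 2446 were apart on the higher side without CX3CL1 replicate 1 and 1692 over all 6 libraries. On the lower side these numbers were 2348 and 1232. CX3CL1 replicate 1 deviated from its replicates by a median log2 difference of -0.524 in the higher genes and -0.099 in all tested genes. In the lower genes that median was -0.004. The common biological coefficient of variation was 0.328 with all 6 libraries and 0.0834 without the deviating one. The counts were repeated with 1 further library left out. Below, that library is named alone but was always left out together with CX3CL1 replicate 1. Where it was CX3CL1 replicate 2 or 3, only 1 CX3CL1 library was compared with the CCL26 libraries. The higher genes then numbered 314 without CX3CL1 replicate 2 and 357 without CX3CL1 replicate 3. The lower genes numbered 104 without CX3CL1 replicate 2, 148 without CX3CL1 replicate 3, 218 without CCL26 replicate 1, 248 without CCL26 replicate 2 and 878 without CCL26 replicate 3.

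**Figure D3:**
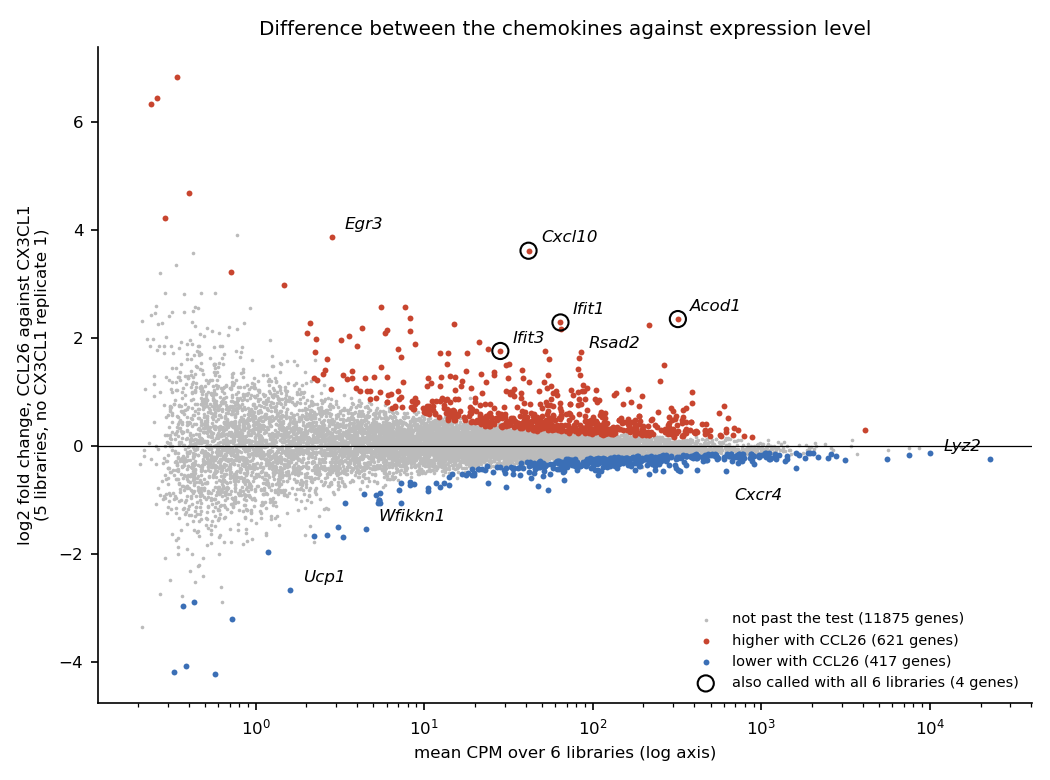
Log2 fold change of CCL26 against CX3CL1 without CX3CL1 replicate 1 (y axis) against mean CPM over 6 libraries (x axis, log scale), 1 point per tested gene. Red points are the 621 genes higher and blue points the 417 genes lower with CCL26, and rings mark the 4 genes also called with all 6 libraries. Large differences lie mostly on the higher side.

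Interferon-stimulated genes were followed in lists by protein family. Part of the genes named below were picked because their groups did not overlap over all 6 libraries, so that trait is no result for them. Of all tested genes, 13.1% were apart on the higher side and 9.54% on the lower. The gene lists below were counted in the fit without CX3CL1 replicate 1. They are to be read against 4.81% higher, 3.23% lower and a median of 0.005 over all tested genes. The lists were chosen with earlier results of these data known, so a high share may be partly built in. In the fit of all 6 libraries the median over all tested genes was 0.016. Called genes without CX3CL1 replicate 1 were more abundant than the rest. Their median level was 54.4 CPM for the higher and 142 CPM for the lower genes, against 21.2 CPM for all tested genes. Small differences pass a test more easily at high counts, and no share over genes of like level was computed for lists of abundant genes. With all 6 libraries, 2 IFIT genes, 1 chemokine ligand and 1 member of the nitric oxide and itaconate list were higher, and 0 members of any other list were called in either direction.

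Of the 6 IFIT genes, 5 were higher and 0 lower, with a median of 1.77 (1.57 with all 6 libraries). Beside Ifit1 and Ifit3, Ifit2, a family member linked to apoptosis of infected cells, stood at 13.7, 23.2 and 25.3 CPM with CX3CL1 and 110.1, 117 and 99.05 CPM with CCL26. CX3CL1 replicate 1 lay below its replicates for Ifit2, which widened the gap. Ifit2 had a log2 fold change of 2.16 (SE 0.0923, adjusted p = 1.1e-11) without CX3CL1 replicate 1 and 2.39 (adjusted p = 0.0668) with all 6 libraries. Ifit3b, a near copy of Ifit3 whose reads the counting may have split, was at 6.76, 4.04 and 1.81 CPM with CX3CL1 and 8.99, 9.58 and 10.9 CPM with CCL26. Its groups did not overlap either, and its log2 fold change was 1.78 without CX3CL1 replicate 1 and 1.23 with it.

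Of 9 genes for oligoadenylate synthetases and RNase L, enzymes that sense double-stranded RNA and degrade RNA, 6 were higher and 0 lower, with a median of 0.51 (0.73 with all 6 libraries). The count was 3 without CX3CL1 replicate 2. Oasl1, a family member that restrains translation of Irf7, was at 1.204, 2.37 and 2.19 CPM with CX3CL1 and 14.04, 11.2 and 15.2 CPM with CCL26, a gap seen in every library. The change on the log2 scale was 2.57 (SE 0.218, adjusted p = 1.63e-07) without CX3CL1 replicate 1 and 2.80 (adjusted p = 0.0687) with all 6 libraries. Oas3, an activator of RNase L, had a log2 fold change of 0.81 without CX3CL1 replicate 1 and 0.96 with it, and Oasl2 one of 0.75 without CX3CL1 replicate 1 and 0.73 with it.

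Among 28 viral restriction factors, 14 were higher and 1 lower, with a median of 0.27 (0.32 with all 6 libraries). The 1 lower call was lost without CX3CL1 replicate 2. Rsad2, or viperin, makes a chain-terminating nucleotide that blocks viral polymerases. Its levels were 45.8, 76.8 and 78.8 CPM with CX3CL1 and 377, 360.5 and 358 CPM with CCL26, and all CCL26 libraries lay above all CX3CL1 libraries. For Rsad2 the log2 fold change was 2.23 (SE 0.0583, adjusted p = 6.63e-15) without CX3CL1 replicate 1 and 2.44 (adjusted p = 0.0599) with all 6 libraries, so that it missed the threshold with the deviating library included. Cmpk2, the neighbouring nucleotide kinase that supplies that pathway, was at 15.1, 39.9 and 42.9 CPM with CX3CL1 and 136, 139 and 137 CPM with CCL26, apart in every library, with a log2 fold change of 1.73 without CX3CL1 replicate 1 and 2.07 with it. The dynamin-like GTPase Mx1, which traps viral nucleocapsids, was at 6.16, 10.3 and 7.91 CPM with CX3CL1 and 35.7, 32.9 and 34.3 CPM with CCL26, with a log2 fold change of 1.92 (SE 0.138, adjusted p = 2.32e-08) without CX3CL1 replicate 1 and 2.07 (adjusted p = 0.0668) with all 6 libraries. Mx2 followed it, with a log2 fold change of 2.12 without CX3CL1 replicate 1 and 2.02 with it. Rtp4, a receptor transporter that is induced by interferon, had a log2 fold change of 1.18 without CX3CL1 replicate 1 and 0.91 with it. Trim30c, a member of a family of TRIM ubiquitin ligases, was absent from CX3CL1 replicate 1 and stood at 1.44 and 2.23 CPM in its replicates, below the CCL26 libraries at 7.48, 5.84 and 6.84 CPM. It had a log2 fold change of 1.85 without CX3CL1 replicate 1 and 2.41 with it.

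The guanylate-binding proteins and immunity-related GTPases attack the vacuoles of intracellular microbes. In 10 of 15 tested members the level was higher with CCL26 and in 0 lower. The members had a median of 1.10 (1.27 with all 6 libraries), and in all 15 the groups were apart over all 6 libraries, where 13.1% of tested genes were apart in that direction. Gbp5 was at 0.401, 1.501 and 1.81 CPM with CX3CL1 and 10.8, 8.38 and 10.5 CPM with CCL26 and Gbp7 at 3.61, 2.83 and 2.44 CPM with CX3CL1 and 15.7, 11.1 and 13.5 CPM with CCL26. Both were low with CX3CL1 in each library, with log2 fold changes of 2.57 without CX3CL1 replicate 1 and 2.96 with it for Gbp5 and 2.36 without CX3CL1 replicate 1 and 2.18 with it for Gbp7. Irgm1, which protects host membranes from its relatives, was at 63.96, 81.1 and 76.2 CPM with CX3CL1 and 141, 144 and 128 CPM with CCL26, and its log2 fold change was 0.81 (SE 0.0714, adjusted p = 2.66e-07) without CX3CL1 replicate 1 and 0.90 (adjusted p = 0.231) with all 6 libraries. Irgm2 had a log2 fold change of 1.41 without CX3CL1 replicate 1 and 1.79 with it. Iigp1, which loads onto parasite vacuoles, was high in CX3CL1 replicate 1 for its group, at 4.68, 0.808 and 1.81 CPM with CX3CL1 and 5.004, 6.89 and 6.41 CPM with CCL26. On the log2 scale it differed by 2.17 without CX3CL1 replicate 1 and 1.34 with it, smaller with that library. Tgtp2 was at 1.204, 2.08 and 2.48 CPM with CX3CL1 and 9.83, 12.1 and 8.47 CPM with CCL26, without overlap, with a log2 fold change of 2.14 without CX3CL1 replicate 1 and 2.38 with it. Gbp genes and the Tgtp pair have near-identical copies, so that single members are uncertain.

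Of 10 genes of the Ifi200 family, which includes sensors of DNA, 7 were higher and 0 lower, with a median of 1.14 (1.08 with all 6 libraries). Ifi204 was at 56.9, 39.5 and 36.7 CPM with CX3CL1 and 79.6, 79.4 and 71.7 CPM with CCL26 and had a log2 fold change of 1.02 without CX3CL1 replicate 1 and 0.79 with it. Ifi203, Ifi209 and Ifi211 had values of 0.77, 1.28 and 1.28 without CX3CL1 replicate 1 and of 1.04, 1.37 and 1.29 with it. Copies in this cluster are also close in sequence. Of 6 genes for conjugation of the ubiquitin-like ISG15, 3 were higher and 0 lower, with a median of 0.51 (0.46 with all 6 libraries). Isg15 itself was at 40.8, 15.6 and 16.9 CPM with CX3CL1 and 37.6, 34.3 and 44.04 CPM with CCL26. The CX3CL1 replicate 1 value lay inside the range of the CCL26 libraries, and the log2 fold change was 1.25 (SE 0.126, adjusted p = 1.66e-06) without CX3CL1 replicate 1 and 0.66 (adjusted p = 0.657) with all 6 libraries. Usp18, which removes ISG15 and dampens interferon receptor signalling, was apart in all libraries at 27.6, 21.8 and 21.6 CPM with CX3CL1 and 43.7, 38.6 and 51.6 CPM with CCL26, with a log2 fold change of 1.04 without CX3CL1 replicate 1 and 0.92 with it.

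The cytosolic RNA sensors were higher as well. Of 11 nucleic acid sensors and kinases, 6 were higher and 0 lower, with a median of 0.27 (0.38 with all 6 libraries). Ifih1, the sensor MDA5, was at 16.4, 34.9 and 31.1 CPM with CX3CL1 and 86.8, 83.1 and 73.3 CPM with CCL26 and had a log2 fold change of 1.30 (SE 0.0941, adjusted p = 2.52e-08) without CX3CL1 replicate 1 and 1.56 (adjusted p = 0.307) with all 6 libraries. Ddx58, the sensor RIG-I, was at 36.8, 52.99 and 55.6 CPM with CX3CL1 and 107, 107 and 99.5 CPM with CCL26, with a log2 fold change of 0.95 without CX3CL1 replicate 1 and 1.11 with it. Dhx58, their regulator, had a log2 fold change of 0.81 without CX3CL1 replicate 1 and 0.64 with it. Tlr9, the endosomal receptor for DNA, was nearly lost in CX3CL1 replicate 1 alone, at 2.07, 44.2 and 49.1 CPM with CX3CL1 and 69.2, 65.5 and 63.6 CPM with CCL26. Its log2 fold change was 0.50 without CX3CL1 replicate 1 and 1.05 with it, the larger value resting on that library.

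PARP and Schlafen genes encode ADP-ribosyltransferases and RNA-binding restriction factors, and 10 of 13 were higher, 0 lower, with a median of 0.94 (1.19 with all 6 libraries). Parp14 was at 78.6, 143 and 146 CPM with CX3CL1 and 429, 416 and 375 CPM with CCL26, and every CCL26 library lay above every CX3CL1 library. The log2 fold change there was 1.49 (SE 0.061, adjusted p = 7.19e-12) without CX3CL1 replicate 1 and 1.73 (adjusted p = 0.167) with all 6 libraries. Slfn5 and Slfn8 had values of 1.62 and 1.61 without CX3CL1 replicate 1, and of 1.40 and 1.86 with it. Dtx3l, a ubiquitin ligase that partners PARP9, had a log2 fold change of 1.01 without CX3CL1 replicate 1 and 1.30 with it.

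Above these effectors, 8 of 25 IRF, STAT and interferon receptor genes were higher and 0 lower, with a median of 0.25 (0.44 with all 6 libraries). That count was 5 without CX3CL1 replicate 2, 5 without CX3CL1 replicate 3 and 4 without CCL26 replicate 1. Stat2, a subunit of the interferon-activated factor ISGF3, was at 37.7, 53.8 and 59.8 CPM with CX3CL1 and 116, 111 and 111 CPM with CCL26, and its log2 fold change was 0.99 (SE 0.0745, adjusted p = 3.68e-08) without CX3CL1 replicate 1 and 1.16 (adjusted p = 0.236) with all 6 libraries. Irf9, the DNA-binding subunit of the same factor, had a log2 fold change of 0.70 without CX3CL1 replicate 1 and 0.82 with it. Irf7, the amplifier of interferon production, had a log2 fold change of 0.95 without CX3CL1 replicate 1 and 0.67 with it, and Irf1 had a log2 fold change of 1.004 without CX3CL1 replicate 1 and 0.83 with it. Irf1 stood at 42.4, 31.5 and 30.2 CPM with CX3CL1 and 59.4, 61.4 and 64.5 CPM with CCL26, with CX3CL1 replicate 1 the highest of its group and below each CCL26 library. None of the 7 interferon genes listed was found in the table.

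**Figure D4:**
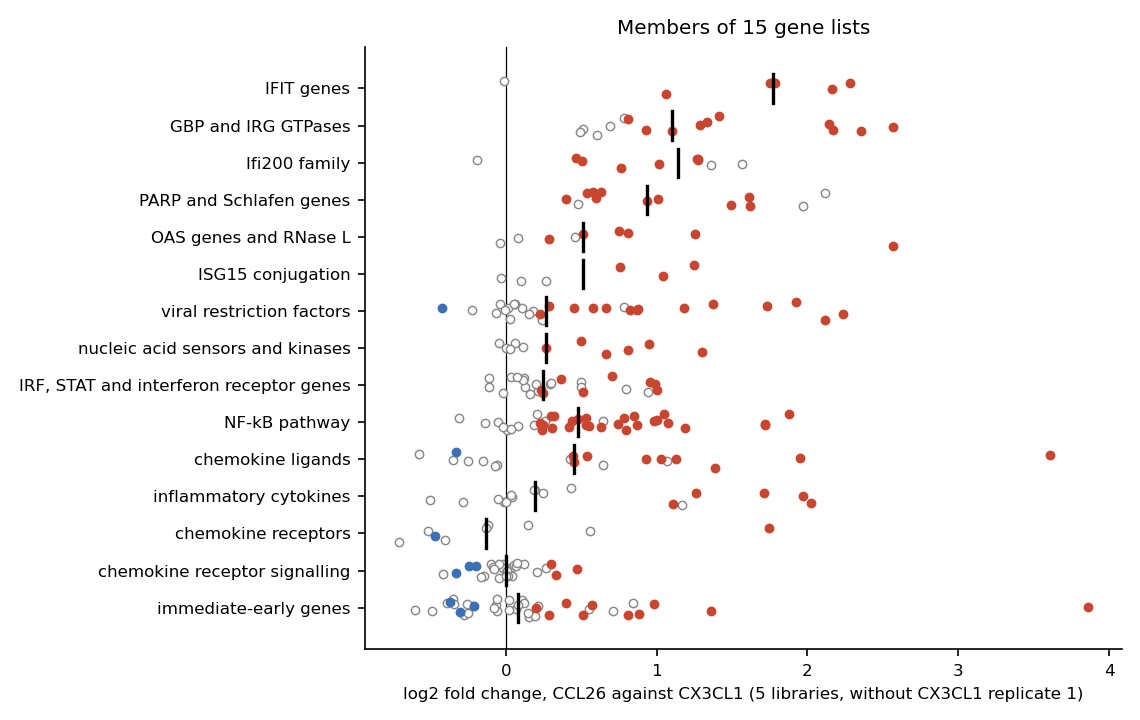
Log2 fold change of CCL26 against CX3CL1 without CX3CL1 replicate 1 (x axis) for the tested members of 15 gene lists. Red points were higher, blue lower and open points not past the test, and black ticks mark the median of each list. The IFIT list has the highest median, 1.77, and the receptor signalling list lies around 0.

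The chemokines themselves were partly higher. Of 19 tested chemokine ligands 9 were higher and 1 lower, with a median of 0.45 (0.23 with all 6 libraries). Beside Cxcl10, Ccl5, which attracts T cells and monocytes, was at 1.14, 0.693 and 1.89 CPM with CX3CL1 and 4.43, 4.55 and 6.62 CPM with CCL26, low in both groups and apart. The change on the log2 scale was 1.95 (SE 0.367, adjusted p = 0.00197) without CX3CL1 replicate 1 and 2.04 (adjusted p = 0.44) with all 6 libraries. Cxcl2, a neutrophil attractant, was at 74, 56.2 and 49.7 CPM with CX3CL1 and 114, 106 and 126 CPM with CCL26. The 3 CX3CL1 values lay below the 3 CCL26 values, and the log2 fold change was 1.13 (SE 0.0861, adjusted p = 4.37e-08) without CX3CL1 replicate 1 and 0.94 (adjusted p = 0.391) with all 6 libraries. Ccl4 and Ccl7, attractants of monocytes and T cells, turned on the deviating library. Ccl4 was at 216, 79.3 and 71.98 CPM with CX3CL1 and 154, 133 and 144 CPM with CCL26, and CX3CL1 replicate 1 was the highest of all 6 libraries. Ccl4 thus had a log2 fold change of 0.93 (SE 0.0759, adjusted p = 1.02e-07) without CX3CL1 replicate 1 and 0.23 (adjusted p = 0.809) with all 6 libraries. Ccl7 was at 110.2, 41.7 and 41.7 CPM with CX3CL1 and 84.9, 92.2 and 78.1 CPM with CCL26, again highest in CX3CL1 replicate 1, with a log2 fold change of 1.03 without CX3CL1 replicate 1 and 0.40 with it. The 1 lower ligand was Pf4, or CXCL4, with a log2 fold change of -0.33 without CX3CL1 replicate 1 and -1.09 with it. That call was lost without CX3CL1 replicate 2, CCL26 replicate 1 or CCL26 replicate 2.

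The receptor that both chemokines share by name was detected in every library. Cx3cr1 (chr9:119901616-120069879) was at 9.37, 7.74 and 9.47 CPM with CX3CL1 and 5.93, 6.08 and 7.602 CPM with CCL26. All CCL26 libraries lay below all CX3CL1 libraries, in a direction in which 9.79% of tested genes were apart over all 6 libraries. Its log2 fold change was -0.40 (SE 0.198, adjusted p = 0.263) without CX3CL1 replicate 1 and -0.44 (adjusted p = 0.657) with it, past the threshold in neither. Ccr3, the classical receptor of CCL26, had no count in CX3CL1 replicate 1 and stood at 1.56 and 1.26 CPM in its replicates and 1.15, 2.54 and 2.55 CPM with CCL26. Those ranges overlapped, and the log2 fold change was 0.56 (adjusted p = 0.548) without that library and 1.12 (adjusted p = 0.695) with it. Ccr1, a receptor of inflammatory CC chemokines, was at 6.16, 6.23 and 5.81 CPM with CX3CL1 and 6.42, 4.55 and 5.59 CPM with CCL26, and the groups overlapped. It had a log2 fold change of -0.12 (SE 0.222, adjusted p = 0.84) without CX3CL1 replicate 1 and -0.13 (adjusted p = 0.79) with all 6 libraries. Ccr2, the receptor of CCL2, likewise had no count in CX3CL1 replicate 1 and stood at 2.597 and 2.65 CPM in its replicates and 2.26, 1.29 and 1.96 CPM with CCL26. The fitted log2 fold change was -0.51 without that library and 0.05 with it, past the test in neither (adjusted p = 0.485 and 0.984). The transcript of the ligand, Cx3cl1, was near 1 CPM, at 1.87, 1.097 and 1.09 CPM with CX3CL1 and 0.709, 2.06 and 0.163 CPM with CCL26, with a log2 fold change of -0.15 (SE 0.714, adjusted p = 0.945) without CX3CL1 replicate 1 and -0.46 (adjusted p = 0.809) with all 6 libraries. No entry of the table matched Ccl26.

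Of 9 tested chemokine receptors, 1 was higher and 1 lower, with a median of -0.13 (-0.14 with all 6 libraries). Ccrl2, an atypical receptor that presents the attractant chemerin, was at 29.7, 23.3 and 23.7 CPM with CX3CL1 and 79.8, 82.6 and 73.5 CPM with CCL26. It was apart in all 6 libraries, with a log2 fold change of 1.74 (SE 0.0909, adjusted p = 2.24e-10) without CX3CL1 replicate 1 and 1.62 (adjusted p = 0.0634) with all 6 libraries. Cxcr4, the receptor that holds cells in the marrow, was at 692, 723 and 712 CPM with CX3CL1 and 522, 537 and 497 CPM with CCL26. It was lower with CCL26 in every library, and its log2 fold change was -0.47 (SE 0.0456, adjusted p = 1.09e-06) without CX3CL1 replicate 1 and -0.45 (adjusted p = 0.657) with all 6 libraries. Both calls remained when any 1 further library was left out. Of 28 genes that carry signals from chemokine receptors, such as G proteins and kinases, 3 were higher and 3 lower, with a median of 0.003 (0.068 with all 6 libraries). The higher count was 1 without CX3CL1 replicate 2, and the lower count was 0 without CX3CL1 replicate 2 and 0 without CX3CL1 replicate 3. Pik3r5, a subunit of the phosphoinositide kinase that G proteins activate, was at 184, 307 and 289 CPM with CX3CL1 and 412, 407 and 419.8 CPM with CCL26, with a log2 fold change of 0.47 without CX3CL1 replicate 1 and 0.67 with it. Vav1, an exchange factor for small GTPases, had a log2 fold change of 0.30 without CX3CL1 replicate 1 and 0.26 with it, and Akt1, a kinase downstream of phosphoinositides, had a log2 fold change of -0.24 without CX3CL1 replicate 1 and -0.28 with it. The calls of Vav1 and Akt1 were lost without CX3CL1 replicate 2, and that of Akt1 also without CX3CL1 replicate 3.

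NF-kB pathway genes were mostly higher with CCL26. The list, chosen with earlier results of these data known, also holds surface receptors such as Clec4e and Tlr2. Of 37 tested members 26 were higher and 0 lower, with a median of 0.48 (0.43 with all 6 libraries), and 23 had groups that were apart over all 6 libraries, where 13.1% of tested genes were apart in that direction. The higher count ranged from 22 to 28 as each further library was left out. Nfkbia, the inhibitor that NF-kB itself induces, was at 125, 107 and 101 CPM with CX3CL1 and 213, 220.4 and 211 CPM with CCL26, and its log2 fold change was 1.05 (SE 0.0605, adjusted p = 9.53e-10) without CX3CL1 replicate 1 and 0.95 (adjusted p = 0.167) with all 6 libraries. Nfkbie, a related inhibitor, was at 7.36, 3.29 and 3.704 CPM with CX3CL1 and 12.6, 12.8 and 13.2 CPM with CCL26, with CX3CL1 replicate 1 well above its replicates. It had a log2 fold change of 1.88 without CX3CL1 replicate 1 and 1.44 with it. Clec4e, a receptor for mycobacterial glycolipid, was tight in both groups at 158, 161 and 143 CPM with CX3CL1 and 345, 365 and 329 CPM with CCL26, and its log2 fold change was 1.19 (SE 0.0628, adjusted p = 2.53e-10) without CX3CL1 replicate 1 and 1.17 (adjusted p = 0.0687) with all 6 libraries. Tlr2, the receptor for bacterial lipopeptides, had a log2 fold change of 0.80 without CX3CL1 replicate 1 and 0.76 with it, and Birc3, a ubiquitin ligase of TNF signalling, had a log2 fold change of 1.005 without CX3CL1 replicate 1 and 1.20 with it.

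Of 17 inflammatory cytokines, 5 were higher and 0 lower, with a median of 0.19 (0.14 with all 6 libraries). Tnf, the cytokine that activates NF-kB in neighbouring cells, was at 42.02, 34.6 and 35.6 CPM with CX3CL1 and 71.5, 81.8 and 73.4 CPM with CCL26. Its groups were apart, and the log2 fold change was 1.11 (SE 0.0885, adjusted p = 7.61e-08) without CX3CL1 replicate 1 and 1.02 (adjusted p = 0.167) with all 6 libraries. Csf1, the macrophage growth factor, was at 17.6, 24.2 and 22.7 CPM with CX3CL1 and 54.6, 57.7 and 55.7 CPM with CCL26, also apart, with a log2 fold change of 1.26 without CX3CL1 replicate 1 and 1.38 with it. Tnfsf15, a ligand that costimulates T cells, was at 4.01, 5.95 and 5.93 CPM with CX3CL1 and 18.8, 20.6 and 18.8 CPM with CCL26, with a log2 fold change of 1.71 without CX3CL1 replicate 1 and 1.87 with it. Il6 was low, at 2.48, 1.67 and 1.05 CPM with CX3CL1 and 6.47, 6.27 and 3.58 CPM with CCL26, and apart by a narrow gap, with a log2 fold change of 2.03 (SE 0.342, adjusted p = 0.000698) without CX3CL1 replicate 1 and 1.66 (adjusted p = 0.657) with all 6 libraries. Tnfsf10, the death ligand TRAIL and an interferon-stimulated gene, was at 0.401, 0.866 and 1.05 CPM with CX3CL1 and 4.16, 3.64 and 3.58 CPM with CCL26, with a log2 fold change of 1.97 without CX3CL1 replicate 1 and 2.26 with it.

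In the list of nitric oxide, itaconate and arginine enzymes, 3 of 8 were higher and 0 lower, with a median of 0.38 (-0.047 with all 6 libraries), so that the sign of the median turned with the deviating library. Beside Acod1, Nos2, which makes nitric oxide, was at 2.01, 2.94 and 1.64 CPM with CX3CL1 and 9.08, 9.19 and 10.5 CPM with CCL26, low in both groups and apart. The log2 fold change there was 2.09 (SE 0.254, adjusted p = 1.61e-05) without CX3CL1 replicate 1 and 2.13 (adjusted p = 0.116) with all 6 libraries. Gch1, which makes the cofactor of Nos2, was at 55.5, 22.7 and 28.9 CPM with CX3CL1 and 35.1, 38.7 and 48.4 CPM with CCL26. CX3CL1 replicate 1 was the highest library of all for Gch1, its call was lost without CX3CL1 replicate 2, and the log2 fold change was 0.65 without CX3CL1 replicate 1 and 0.19 with it. Markers of alternative activation split. Tgm2, a transglutaminase, had a log2 fold change of 0.61 without CX3CL1 replicate 1 and 0.59 with it. The other higher gene of that list was Myc, which is also counted among the immediate-early genes below. Mrc1, the mannose receptor, had a log2 fold change of -0.24 without CX3CL1 replicate 1 and 0.05 with it. That sign differed with the deviating library. The call of Mrc1 was lost without CX3CL1 replicate 2. Of those 15 genes 2 were higher and 2 lower, with a median of 0.028 (0.15 with all 6 libraries), the lower count being 0 without CX3CL1 replicate 2, 1 without CX3CL1 replicate 3, 1 without CCL26 replicate 1 and 1 without CCL26 replicate 2.

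Immediate-early genes answer stimuli within minutes to hours, and 10 of 39 were higher and 3 lower, with a median of 0.082 (0.12 with all 6 libraries). The higher count was 6 without CX3CL1 replicate 2, and the lower count was 1 without CX3CL1 replicate 2, 0 without CX3CL1 replicate 3, 1 without CCL26 replicate 1, 1 without CCL26 replicate 2 and 6 without CCL26 replicate 3. Egr3 had the largest log2 fold change among the named genes, 3.86 (SE 0.414, adjusted p = 3.78e-06) without CX3CL1 replicate 1 and 4.34 (adjusted p = 0.25) with all 6 libraries. It rested on low levels, 0, 0.462 and 0.295 CPM with CX3CL1 and 4.03, 6.99 and 5.21 CPM with CCL26. Maff, a small Maf transcription factor, was at 15.9, 14.9 and 14.2 CPM with CX3CL1 and 37.02, 35.2 and 39.5 CPM with CCL26, tight and apart, with a log2 fold change of 1.36 without CX3CL1 replicate 1 and 1.31 with it. Myc, a driver of growth, was at 28.03, 25.3 and 24.7 CPM with CX3CL1 and 52.03, 51.7 and 44.1 CPM with CCL26, with a log2 fold change of 0.98 without CX3CL1 replicate 1 and 0.92 with it. Of 18 cAMP and CREB genes 2 were higher and 1 lower, with a median of 0.11 (0.27 with all 6 libraries). Pde4b, which degrades cAMP, was at 9.57, 15.5 and 14.3 CPM with CX3CL1 and 31.9, 35.05 and 33.99 CPM with CCL26, and Creb5, a CREB family member, was at 3.28, 13.6 and 13.2 CPM with CX3CL1 and 28.1, 29.4 and 26.3 CPM with CCL26. Pde4b had a log2 fold change of 1.18 without CX3CL1 replicate 1 and 1.36 with it, and Creb5 had a log2 fold change of 1.06 without CX3CL1 replicate 1 and 1.47 with it. The lower gene was Crem, a cAMP-induced repressor, with a log2 fold change of -0.45 without CX3CL1 replicate 1 and -0.84 with it, and its call was lost without any 1 of the other 5 libraries. Cdc42ep2, an effector of the GTPase Cdc42, was at 1.07, 0.404 and 0.2105 CPM with CX3CL1 and 2.66, 2.68 and 1.79 CPM with CCL26, with a log2 fold change of 2.98 without CX3CL1 replicate 1 and 2.11 with it.

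In antigen presentation, 5 of 27 genes were higher and 0 lower, with a median of 0.15 (-0.21 with all 6 libraries). The sign of the median turned with CX3CL1 replicate 1: 25 of the 27 estimates were positive without it and 9 with it. The count of higher genes was 3 without CX3CL1 replicate 2 and 2 without CX3CL1 replicate 3. Cd274, the T cell inhibitory ligand PD-L1, was at 74.3, 116 and 119 CPM with CX3CL1 and 202, 201 and 198 CPM with CCL26. The groups were apart, and its log2 fold change was 0.77 (SE 0.0579, adjusted p = 3.68e-08) without CX3CL1 replicate 1 and 0.96 (adjusted p = 0.466) with all 6 libraries. Tap1, which carries peptides to class I molecules, had a log2 fold change of 0.45 without CX3CL1 replicate 1 and 0.34 with it. Of 34 cholesterol and lipid genes 5 were higher and 2 lower, with a median of 0.056 (0.15 with all 6 libraries), and the higher count was 2 without CX3CL1 replicate 2, 3 without CX3CL1 replicate 3 and 3 without CCL26 replicate 2. The lower count was 1 without CX3CL1 replicate 2, 1 without CX3CL1 replicate 3 and 5 without CCL26 replicate 3. Abca1, the exporter of cholesterol, was at 69.7, 281 and 284 CPM with CX3CL1 and 412, 400.4 and 387 CPM with CCL26, with a log2 fold change of 0.50 (SE 0.0498, adjusted p = 1.28e-06) without CX3CL1 replicate 1 and 0.92 (adjusted p = 0.657) with all 6 libraries. Insig1, which holds back cholesterol synthesis, had a log2 fold change of 0.31 without CX3CL1 replicate 1 and 0.31 with it.

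The single genes furthest down with CCL26 mostly had few counts. They were picked among called genes whose groups did not overlap over all 6 libraries. That their groups were apart is therefore no result. Of the 20 largest named on that side, Wfikkn1, Cdk5r1 and Dedd2 stayed past the test as each further library was left out, and the other 17 lost the call at least once. Wfikkn1, a secreted protease inhibitor that binds myostatin, was at 9.23, 5.77 and 6.02 CPM with CX3CL1 and 1.86, 1.58 and 2.66 CPM with CCL26. The CCL26 libraries lay below all CX3CL1 libraries, and its log2 fold change was -1.54 (SE 0.284, adjusted p = 0.00163) without CX3CL1 replicate 1 and -1.78 (adjusted p = 0.304) with all 6 libraries. Cdk5r1, the activator of the kinase CDK5, was at 6.56, 7.74 and 7.703 CPM with CX3CL1 and 4.16, 3.16 and 3.69 CPM with CCL26, with a log2 fold change of -1.07 without CX3CL1 replicate 1 and -0.997 with it. Dedd2, a death effector domain protein, was at 69.5, 56.7 and 55.3 CPM with CX3CL1 and 31.1, 31.8 and 37.8 CPM with CCL26, with a log2 fold change of -0.74 without CX3CL1 replicate 1 and -0.85 with it. Ucp1, the uncoupling protein of brown fat, was at 3.48, 2.77 and 2.23 CPM with CX3CL1 and 0.443, 0.335 and 0.3801 CPM with CCL26. It was low in all CCL26 libraries, its call was lost without CX3CL1 replicate 2, and its log2 fold change was -2.67 (SE 0.535, adjusted p = 0.00343) without CX3CL1 replicate 1 and -2.85 (adjusted p = 0.166) with all 6 libraries. S1pr4, a sphingosine phosphate receptor of blood cells, was at 14.2, 7.91 and 9.39 CPM with CX3CL1 and 4.87, 3.26 and 4.29 CPM with CCL26, with a log2 fold change of -1.06 without CX3CL1 replicate 1 and -1.34 with it. Acrbp, an acrosin-binding protein known from sperm, was at 8.296, 3.87 and 3.92 CPM with CX3CL1 and 1.196, 0.958 and 1.47 CPM with CCL26. The log2 fold change of Acrbp was -1.69 without CX3CL1 replicate 1 and -2.14 with it. The calls of S1pr4 and Acrbp were lost without CX3CL1 replicate 3.

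Most mitochondrially encoded transcripts were lower with CCL26 than in CX3CL1 replicates 2 and 3. Of 14 tested, 11 were lower and 0 higher without CX3CL1 replicate 1, with a median of -0.31 (-0.49 with all 6 libraries), and all 14 estimates were negative. With all 6 libraries 12 were negative and 2 positive. The count of lower genes was 6 without CX3CL1 replicate 2. The large ribosomal RNA mt-Rnr2 was at 738, 413 and 416 CPM with CX3CL1 and 306, 329 and 279 CPM with CCL26, with a log2 fold change of -0.44 (SE 0.0584, adjusted p = 4.59e-05) without CX3CL1 replicate 1 and -0.78 (adjusted p = 0.657) with all 6 libraries. The small one, mt-Rnr1, was at 565, 311 and 300.0 CPM with CX3CL1 and 239, 239 and 212 CPM with CCL26, with a log2 fold change of -0.41 without CX3CL1 replicate 1 and -0.77 with it. CX3CL1 replicate 1 was the highest library for both ribosomal RNAs. For ND1, a subunit of respiratory complex I, it was the lowest of its group, at 705, 848 and 820.5 CPM with CX3CL1 and 676, 693 and 638 CPM with CCL26. For ND1 the log2 fold change was -0.32 without CX3CL1 replicate 1 and -0.24 with it. COX1, a subunit of cytochrome c oxidase, was at 2785, 6707 and 6857 CPM with CX3CL1 and 5875, 6059 and 5139 CPM with CCL26, so that CX3CL1 replicate 1 lay below all other libraries. Its sign turned with that library, with a log2 fold change of -0.25 (SE 0.0456, adjusted p = 0.00144) without CX3CL1 replicate 1 and 0.06 (adjusted p = 0.937) with all 6 libraries. The list summed to 7240 CPM in CX3CL1 replicate 1, below the CCL26 libraries at 8657 to 10060 CPM, and to 11490 and 11550 CPM in CX3CL1 replicates 2 and 3, above them.

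Some lysosome and scavenging genes were lower with CCL26 too. Of 38 tested, 11 were lower and 0 higher, with a median of -0.13 (-0.29 with all 6 libraries), and the count was 4 without CX3CL1 replicate 2, 6 without CX3CL1 replicate 3 and 21 without CCL26 replicate 3. Ctsd, the protease cathepsin D, was at 7587, 2575 and 2398 CPM with CX3CL1 and 2056, 2020 and 2093 CPM with CCL26. The CX3CL1 replicate 1 value stood far above all others, and the log2 fold change was -0.27 without CX3CL1 replicate 1 and -1.03 with it. Ctsl, cathepsin L, was at 1716, 1270 and 1229 CPM with CX3CL1 and 1034, 1037 and 1072 CPM with CCL26, with a log2 fold change of -0.25 without CX3CL1 replicate 1 and -0.42 with it. Msr1, a scavenger receptor, was at 472, 526 and 520.4 CPM with CX3CL1 and 446, 450.0 and 407 CPM with CCL26, with a log2 fold change of -0.27 without CX3CL1 replicate 1 and -0.22 with it. Among the 16 macrophage markers, 12 were not past the test and 4 had positive estimates without CX3CL1 replicate 1. On the lower side, Itgam had a log2 fold change of -0.24 without CX3CL1 replicate 1 and -0.28 with it. Cd68 had a log2 fold change of -0.20 without CX3CL1 replicate 1 and -0.28 with it. Both calls were lost without CX3CL1 replicate 2, and that of Cd68 also without CX3CL1 replicate 3.

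Stress lists held calls in both directions. Of 28 oxidative stress genes 2 were higher and 7 lower, with a median of -0.087 (-0.24 with all 6 libraries), the lower count being 4 without CX3CL1 replicate 2, 4 without CX3CL1 replicate 3 and 4 without CCL26 replicate 2. Hmox1, which breaks down heme, was at 1368, 1207 and 1188 CPM with CX3CL1 and 1030, 1014 and 1003 CPM with CCL26, lower with CCL26 in every library. Its log2 fold change was -0.24 (SE 0.0385, adjusted p = 0.000493) without CX3CL1 replicate 1 and -0.30 (adjusted p = 0.657) with all 6 libraries. Srxn1, which repairs oxidised peroxiredoxins, was higher, with a log2 fold change of 0.31 without CX3CL1 replicate 1 and 0.23 with it. Of 16 heat shock chaperones 2 were higher and 5 lower, with a median of -0.12 (-0.22 with all 6 libraries), the lower count being 1 without CX3CL1 replicate 2, 3 without CX3CL1 replicate 3, 3 without CCL26 replicate 1 and 3 without CCL26 replicate 2. The higher genes were the inducible chaperones Hspa1a, at 16.6, 12.7 and 8.21 CPM with CX3CL1 and 36.4, 27.8 and 42.5 CPM with CCL26, and Hspa1b, at 9.03, 17.4 and 17.1 CPM with CX3CL1 and 47.2, 46.5 and 53.9 CPM with CCL26, near-identical copies that cannot be told apart with confidence. Hspa1a had a log2 fold change of 1.79 without CX3CL1 replicate 1 and 1.51 with it, and Hspa1b had a log2 fold change of 1.51 without CX3CL1 replicate 1 and 1.76 with it. The constitutive Hspa8 was at 4269, 2317 and 2350 CPM with CX3CL1 and 2028, 2112 and 1867 CPM with CCL26, with a log2 fold change of -0.22 without CX3CL1 replicate 1 and -0.57 with it. Of 36 unfolded protein genes 5 were higher and 8 lower, with a median of -0.006 (-0.10 with all 6 libraries). The higher count was 3 without CX3CL1 replicate 2, 2 without CX3CL1 replicate 3, 3 without CCL26 replicate 1 and 3 without CCL26 replicate 2. The lower count was 3 without CX3CL1 replicate 2, 2 without CX3CL1 replicate 3, 3 without CCL26 replicate 1 and 5 without CCL26 replicate 2. Ern1, the stress sensor IRE1, had a log2 fold change of 0.49 without CX3CL1 replicate 1 and 0.81 with it, and Calr, a chaperone of the endoplasmic reticulum, had a log2 fold change of -0.28 without CX3CL1 replicate 1 and -0.57 with it. Cebpb, a transcription factor of stress and inflammation, was at 285, 121 and 120.4 CPM with CX3CL1 and 145, 152 and 166 CPM with CCL26, highest in CX3CL1 replicate 1. Its sign turned with that library, with a log2 fold change of 0.36 (SE 0.0677, adjusted p = 0.00191) without CX3CL1 replicate 1 and -0.18 (adjusted p = 0.821) with all 6 libraries.

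Actin, growth factor and glycolysis genes had calls mainly on the lower side. Of 44 actin and migration genes 3 were higher and 8 lower, with a median of -0.070 (-0.067 with all 6 libraries). The higher count was 1 without CX3CL1 replicate 2 and 1 without CX3CL1 replicate 3, and the lower count was 1 without CX3CL1 replicate 2, 4 without CX3CL1 replicate 3, 3 without CCL26 replicate 2 and 18 without CCL26 replicate 3. Rhob, an endosomal small GTPase, was at 436, 202 and 217 CPM with CX3CL1 and 139, 140.1 and 157 CPM with CCL26, and its log2 fold change was -0.53 (SE 0.0651, adjusted p = 1.91e-05) without CX3CL1 replicate 1 and -0.97 (adjusted p = 0.657) with all 6 libraries. Ezr, a linker of membrane to actin, was on the higher side, with a log2 fold change of 0.47 without CX3CL1 replicate 1 and 0.49 with it. Of 22 growth factor genes 0 were higher and 3 lower, with a median of -0.044 (-0.12 with all 6 libraries), the lower count being 1 without CX3CL1 replicate 2. Timp2, an inhibitor of matrix proteases, had a log2 fold change of -0.37 without CX3CL1 replicate 1 and -0.57 with it, and Spp1, osteopontin, had a log2 fold change of -0.21 without CX3CL1 replicate 1 and -0.48 with it. The call of Spp1 was lost without CX3CL1 replicate 2. Of 34 glycolysis and hypoxia genes 0 were higher and 4 lower, with a median of -0.095 (-0.13 with all 6 libraries). The lower count was 1 without CX3CL1 replicate 2, 1 without CX3CL1 replicate 3, 1 without CCL26 replicate 1 and 11 without CCL26 replicate 3. Gapdh, a glycolytic enzyme, had a log2 fold change of -0.14 without CX3CL1 replicate 1 and -0.45 with it, and its call was lost without CX3CL1 replicate 2, CX3CL1 replicate 3 or CCL26 replicate 1. Of 49 cell cycle genes 1 was higher and 5 lower, with a median of -0.078 (-0.065 with all 6 libraries). The higher count was 0 without CX3CL1 replicate 2, 0 without CX3CL1 replicate 3, 0 without CCL26 replicate 2 and 3 without CCL26 replicate 3, and the lower count was 0 without CX3CL1 replicate 2, 0 without CX3CL1 replicate 3, 2 without CCL26 replicate 1, 1 without CCL26 replicate 2 and 8 without CCL26 replicate 3. Of 17 circadian genes 0 were higher and 1 lower, with a median of -0.015 (-0.031 with all 6 libraries), and the lower call was lost without CX3CL1 replicate 2. The 8 thermogenic genes had a median of -0.14 (0.055 with all 6 libraries), which turned sign, and held Ucp1 on the lower side and Dio2, which activates thyroid hormone, on the higher, at 1.94, 1.501 and 0.505 CPM with CX3CL1 and 3.63, 2.97 and 3.04 CPM with CCL26. Dio2 had a log2 fold change of 1.73 without CX3CL1 replicate 1 and 1.31 with it, and its call was lost without CX3CL1 replicate 3 or CCL26 replicate 1.

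**Figure D5:**
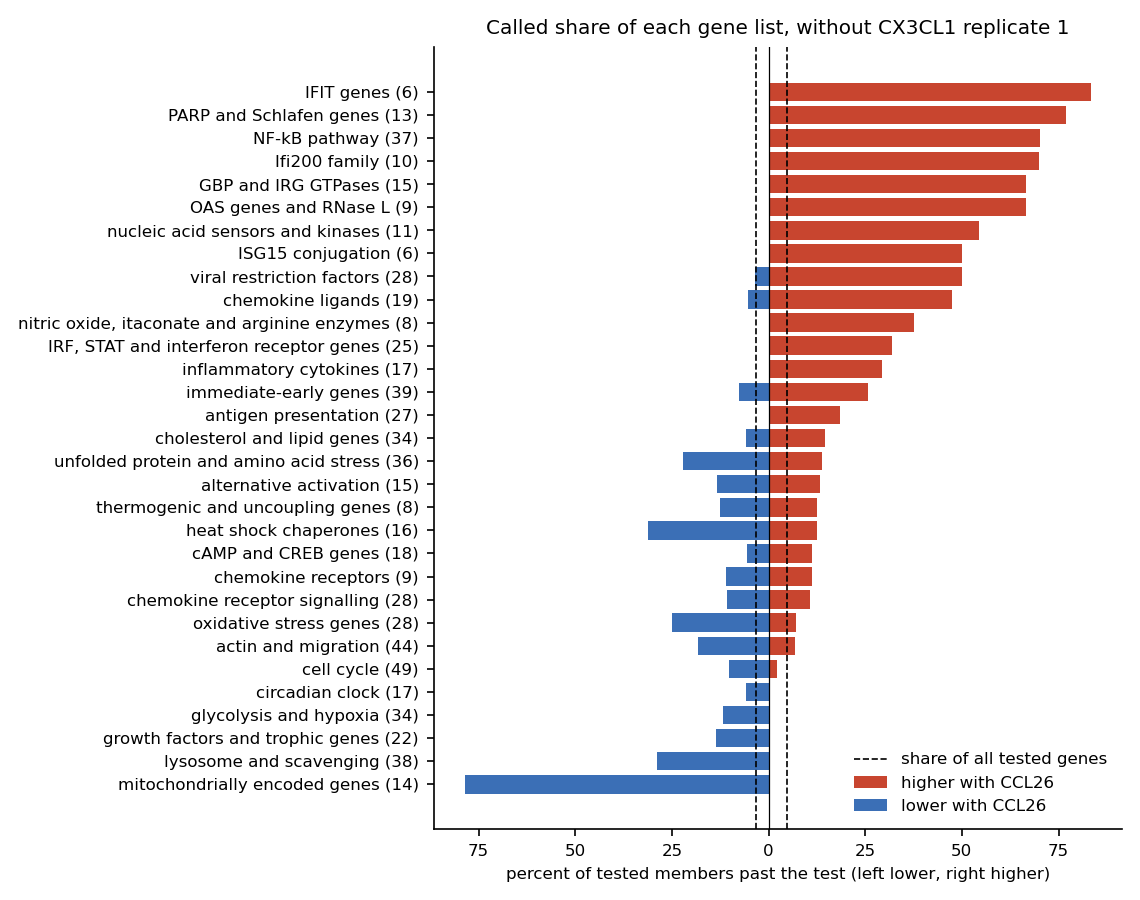
Percent of tested members of each gene list that were higher (red, to the right) or lower (blue, to the left) with CCL26, without CX3CL1 replicate 1, with the number of tested members in brackets. Dashed lines mark the shares over all tested genes, 4.81% higher and 3.23% lower. The interferon-stimulated lists and the NF-kB list lie at the right, and the mitochondrially encoded list reaches furthest to the left.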

How the data were processed

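RNA was measured in 6 libraries, 3 per chemokine. The authors deposited 1 table of whole-number counts per gene, not normalized. Libraries were made with the NEBNext Ultra II kit and read as 150 bp pairs, per the labels' protocols. STAR, featureCounts, MultiQC, GRCm38 and mm10 are named in the submitters' processing notes; no source used here gives the strand setting of the counting. Every gene in the table reached at least 0.431 CPM in 2 libraries. Columns were matched by the labels' sample codes, and the number of value columns left unmatched was 0. Of 1343 genes without a symbol, 1333 were named from GENCODE M21. No pair of replicates agreed within sampling noise.

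Genes were filtered with filterByExpr, scaled by TMM and tested by the quasi-likelihood method of edgeR 4.0.16 in R 4.3.3, group as the only term, Benjamini-Hochberg adjustment over all genes tested and a threshold of 0.05, once with all 6 libraries and once without CX3CL1 replicate 1. CPM was computed on TMM-scaled sizes of the 6 libraries, and a positive log2 fold change means higher with CCL26. Levels are not divided by transcript length and are compared within a gene. SE is the absolute log2 fold change over the square root of F. The fit was also run on simulated counts with known changes. Those counts did not contain the length-related deviation of CX3CL1 replicate 1, and the outcome is not reported here. Figures used matplotlib 3.10.9. Precision is limited by counting error and by 2 or 3 libraries per group. Leaving out CX3CL1 replicate 2 or 3 beside replicate 1 kept only 1 CX3CL1 library.

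Members and lists were chosen with earlier results of these data known. Named genes are all those past the test with 6 libraries; without CX3CL1 replicate 1, the 20 largest log2 fold changes per direction among called genes with a mean of at least 1 CPM, a proper name and groups apart over 6 libraries; up to 4 members per list by smallest p; the receptors and ligands named; and the genes most deviant in CX3CL1 replicate 1. Some genes that these rules name are not reported here. Lyz2, Itgam, Cd68, Pf4 and others were picked from the lists with their values already known. Alternative fits used DESeq2 1.42.0, limma 3.58.1 with voom, other scalings, filters and thresholds, a replicate block and leaving out each library. Promoters come from RefSeq, which had one for 9648 of 12913 tested genes.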

Additional observations from a re-analysis of the deposited data

How the results depend on the processing

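With all 6 libraries, where edgeR called 4 genes higher and 0 lower, DESeq2 called 96 and 14, voom 9 higher, voom with quality weights for libraries 654 and 398, and thresholds of 0.01 and 0.1 gave 0 and 17 higher. Leaving out 1 library gave 0 to 621 higher and 0 to 417 lower genes, the upper ends without CX3CL1 replicate 1. Without that library (621 and 417), leaving out a further one gave 314 to 910 higher and 104 to 878 lower genes, a threshold of 0.01 gave 368 and 148, a threshold of 0.1 gave 647 lower, and quality weights gave 728 lower. Other scalings, filters and tools stayed within 1.5 times, and the causes were not tested. The replicate block gave 0 higher genes with all 6 libraries and 631 higher and 385 lower without CX3CL1 replicate 1. Deviations from the group means correlated at r = -0.087, 0.115 and -0.149 between samples of the same number. CX3CL1 replicate 1 weighs on these values, and without it r was 0.029 and 0.036 for replicates 2 and 3. The deviations of 2 remaining CX3CL1 libraries mirror each other, so r cannot decide whether the numbers are pairs. The main fits did not use the numbers as pairs. In the gene lists, the fit of all 6 libraries left 2 IFIT genes, 1 chemokine ligand, 1 itaconate gene and 0 in every other list and direction. Of 127 genes followed through every alternative, 121 were called without CX3CL1 replicate 1, and 92 of those kept the call whichever further library was left out. Of all 198 genes that the naming rules pick, 19 changed sign between the fits with and without CX3CL1 replicate 1, and 3 of these were called without it (Mrc1, COX1 and Cebpb); 3 of 31 list medians changed sign. Of the 127 genes, 7 changed sign under some alternative. Mrc1, lower without CX3CL1 replicate 1, had log2 fold changes with it of 0.0507 (also with robust dispersion), 0.0325 with DESeq2 size factors, 0.0253 with upper quartile scaling, 0.0559 unfiltered, 0.0396 at 5 CPM, 0.0372 with DESeq2, 0.137 with voom, 0.133 with the replicate block, and 0.0255 (lowest), 0.0437, 0.0908, 0.213 and 0.236 (highest) with 1 library left out. COX1, also lower without that library, had 0.0625 with it (also robust), and in the same order 0.0446, 0.0382, 0.0673, 0.0524, 0.0491, 0.172 and 0.165, and 0.0176, 0.0407, 0.135, 0.245 and 0.265 with 1 library left out. Cebpb, higher without that library, had -0.181 (also robust), -0.206, -0.235, -0.166, -0.213, -0.195, -0.0506 and -0.0492, and -0.131, -0.164, -0.225, -0.376 and -0.383 with 1 library left out. Ccr2, not called, turned to 0.0528 (also robust), 0.0367, 0.0404, 0.0547, 0.0497, 1.21 with voom and 0.565 with the replicate block, and to 0.0096, 0.255, 0.430 and 0.483 with 1 library left out. Cx3cl1, not called, ranged from -1.28 to 0.328, turning to 0.0436 with CX3CL1 replicate 1 and to 0.0414 and 0.328 without it, Ccl4 to -0.029 and Gch1 to -0.037 with 1 library left out. Depth limits genes near 1 CPM, such as Cx3cl1, Ccr2 and Ccr3.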

Other observations

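Genes called without CX3CL1 replicate 1 were not even in transcript length. Among genes of at least 10 CPM, 3.43% of the quintile with the shortest annotated transcripts and 10.8% of the quintile with the longest were higher with CCL26, while 5.57% and 3.74% were lower. The median longest transcript was 4166 bp for the higher genes and 3213 bp for all. Spearman's rank correlation between length and the log2 fold change was 0.161, a description across genes, and its source was not tested. The shift in base composition was smaller, with a rank correlation of 0.038 between GC content and the log2 fold change.

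In CX3CL1 replicate 1, 968 genes had no count although each of the other 5 libraries had some, and 10 of them averaged at least 10 CPM elsewhere. Among these were Sacm1l, a phosphoinositide phosphatase, at 0 CPM against 38.4 to 44.6 CPM in the other libraries, and Pdpr, a regulator of pyruvate dehydrogenase phosphatase, at 0 CPM against 19.7 to 23.9 CPM. Bola2, a small iron-sulfur protein, was at 196 CPM there against 30.9 to 36.6 CPM.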
